A study of Zea mays with 15 samples.

Results

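When the peaks of 14 maize AUXIN RESPONSE FACTORS (ARFs) were joined wherever they overlapped by at least 1 bp, 124379 merged sites were obtained, and 1295 of them (1.04%, 95% Wilson interval 0.986 to 1.099%) were wider than 2 peak widths and are described here. These sites were selected on measured peak positions, by width alone. All peaks measured 201 bp around a central summit, so a site passes the limit when it is longer than 2 peaks placed end to end, and it holds a chain of overlapping peaks whose outermost summits lay more than 201 bp apart. These wide sites held 12872 of 386300 peaks (3.33%) and 2.16% of the merged bases. The remaining 123084 merged sites are called narrower sites here.

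Peaks came from DAP-seq, in which a purified transcription factor is incubated with a library of naked genomic DNA and the retained fragments are sequenced. The DNA was B73 genomic DNA from young, field grown ears, and each ARF was a glutathione S-transferase (GST) fusion purified from E. coli. There was 1 library and 1 peak list per ARF, with no replicate library used here, and a GST-HALO library made with wheat germ protein served as the background in the authors' peak calling. Naked DNA carries no nucleosomes and no other proteins, so the sites show where these proteins can bind in vitro and not where they bind in the ear.

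The clade A lists were ARF4 (GRMZM2G034840), ARF16 (GRMZM2G028980), ARF18 (GRMZM2G035405), ARF27 (GRMZM2G160005), ARF29 (GRMZM2G086949), ARF34 (GRMZM2G081158) and ARF35 (GRMZM2G317900). The clade B lists were ARF10 (GRMZM2G338259), ARF25 (GRMZM2G116557), ARF7 (GRMZM2G475263), ARF14 (GRMZM2G137413), ARF36 (GRMZM2G702026), ARF13 (GRMZM2G378580) and ARF39 (GRMZM2G017187). Lists ran from 7520 peaks for ARF18 to 74603 for ARF34, and the ARF34 and ARF27 libraries had been reduced to 15 M and 20 M mapped reads.

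ARFs connect the plant hormone auxin to transcription. They recognise short TGTC-type elements through an N-terminal DNA-binding domain and can occupy a pair of such elements as dimers. Clade A members are generally described as activators, which Aux/IAA repressors hold inactive until auxin triggers the degradation of those repressors. Clade B members are generally described as repressors, and how far they depend on auxin is less settled. A region with several summits is therefore one where several elements, or both kinds of ARF, can be examined side by side.

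Width was computed from the same peaks that are described below. The number of peaks, their spacing, the number of ARFs and the presence of both clades are tied to the rule that chose the sites. No test was made on them or, with 1 library per ARF, on anything else. Intervals are 95% Wilson intervals over sites or peaks. They cover counting error only, neighbouring sites are not independent, and fragments were amplified without molecular identifiers.

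Most wide sites were only slightly over the limit. The median width was 443 bp (quartiles 419.5 and 483), 731 sites (56.4%) were 403 to 450 bp, 322 were 451 to 500 bp, 195 were longer but within 3 peak widths, and 47 (3.63%) exceeded 3 peak widths. The 195 sites at most 10 bp above the limit had a median of 8 peaks and 6 ARFs, and 61.5% of them held both clades. The 265 sites at the limit or less than 10 bp below it had 6 peaks and 5 ARFs, and 51.3% held both. Both bands lay closer to each other than to the median of all narrower sites, 2 peaks and 2 ARFs.

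A wide site held a median of 9 peaks (quartiles 6 and 13, range 3 to 37) from 7 ARFs (quartiles 5 and 9), whereas a narrower site held 2 peaks from 2 ARFs. Of the wide sites, 501 (38.7%, 36.1 to 41.4%) were bound by 8 or more ARFs, against 6.23% of narrower sites. The share of merged sites that were wide rose from 0.125% of sites with 2 ARFs to 2.75% with 7 ARFs and 8.49% with all 14 (46 of 542). Median peak number rose with width as well, from 8 at 403 to 450 bp to 13 above 3 peak widths. The share with both clades went from 64.8% to 73.3% over the classes up to 3 peak widths and was 70.2% (56.0 to 81.3%) above it.

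Both clades were present in 881 wide sites (68.0%, 65.4 to 70.5%), 289 (22.3%) had clade A peaks only and 125 (9.65%) had clade B peaks only. Among narrower sites the shares were 15.2%, 50.4% and 34.4%. A site with more ARFs has more chances to include both clades, so the comparison was repeated at equal ARF number. Among the 793 wide sites with 2 to 7 ARFs, 47.9% (44.5 to 51.4%) held both clades, against 26.3% of narrower sites weighted to the same ARF numbers. At 7 ARFs the shares were 66.2% and 33.6%. Equal ARF number does not remove the effect of the rule. Clade A and clade B summits at different places can themselves make a site wide.

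Clade A peaks outnumbered clade B peaks at 861 wide sites (66.5%), and the reverse was true at 370 (28.6%). With only the clade A peaks kept, 670 of the 1295 sites (51.7%) still held a merged stretch above the limit, and with only the clade B peaks 310 (23.9%) did. Of the both-clade sites, 350 of 881 (39.7%, 36.5 to 43.0%) were wide with neither clade alone, so their width came from joining summits of both clades. Sites bound by the full clade A set and no other ARF were wide in 35 of 1228 cases (2.85%, 2.06 to 3.94%). The corresponding full clade B sites were wide in 15 of 2296 cases (0.653%, 0.396 to 1.08%).

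The lists contributed unequally. ARF34, the longest list, had a peak at 87.3% of wide sites, followed by ARF16 (73.2%), ARF27 (69.7%), ARF4 (67.3%), ARF10 (64.2%) and ARF25 (60.2%). ARF39, among the shorter lists, was present at 22.2%. Relative to list size the order was different. The shares of a list's own peaks that fell in wide sites were 5.82% for ARF18, 5.77% for ARF35, 5.14% for ARF29, 4.47% for ARF4, 4.41% for ARF27, 3.66% for ARF16 and 2.73% for ARF34 in clade A. In clade B they were 3.22% for ARF10, 3.06% for ARF39, 2.72% for ARF25, 2.68% for ARF13, 2.67% for ARF14, 2.61% for ARF36 and 2.46% for ARF7. Within clade A the 3 shortest lists, ARF18, ARF35 and ARF29, had the 3 highest shares. The lowest clade A value, that of ARF34, lay within the clade B range.

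Removing a list shows how far the set rests on it. Without ARF34, 357 of the 1295 sites (27.6%) no longer passed the limit. The next largest losses were 136 without ARF4, 132 without ARF27, 124 without ARF7 and 115 each without ARF10 and ARF25, whereas 14 were lost without ARF18 and 6 without ARF39. ARF34 and ARF7 were also the lists most often alone at a summit position (defined below), with 25.9% and 31.6% of their positions in wide sites held by no other list.

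Repeated peaks of the same list were a feature of most wide sites. At 1141 of them (88.1%, 86.2 to 89.8%) at least 1 list had 2 or more peaks, against 8.36% of narrower sites. At 267 (20.6%) some list had 3 or more, at 28 some list had 4 or more and at 2 some list had 5. The remaining 154 wide sites (11.9%) held at most 1 peak of every list and were wide because different ARFs had summits at different places. The contrast with narrower sites is partly set by the rule, which requires at least 3 peaks. It was not repeated at equal ARF number.

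Where a list had a peak in a wide site, it had 2 or more in 67.1% of sites for ARF34, 52.6% for ARF16, 44.6% for ARF27, 41.7% for ARF4, 28.9% for ARF29, 19.8% for ARF35 and 17.1% for ARF18. For clade B the shares were 30.7% for ARF25, 29.96% for ARF7, 29.3% for ARF14, 28.2% for ARF10, 15.8% for ARF36, 10.8% for ARF13 and 7.99% for ARF39. ARF16 and ARF34 both had 2 or more peaks at 432 wide sites (33.4%). In each clade the 4 longest lists had the 4 highest shares, and the part of sequencing depth in these shares was not tested, since the study's methods give a range of reads over all samples and not the depth of each library.

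**Figure D1:**
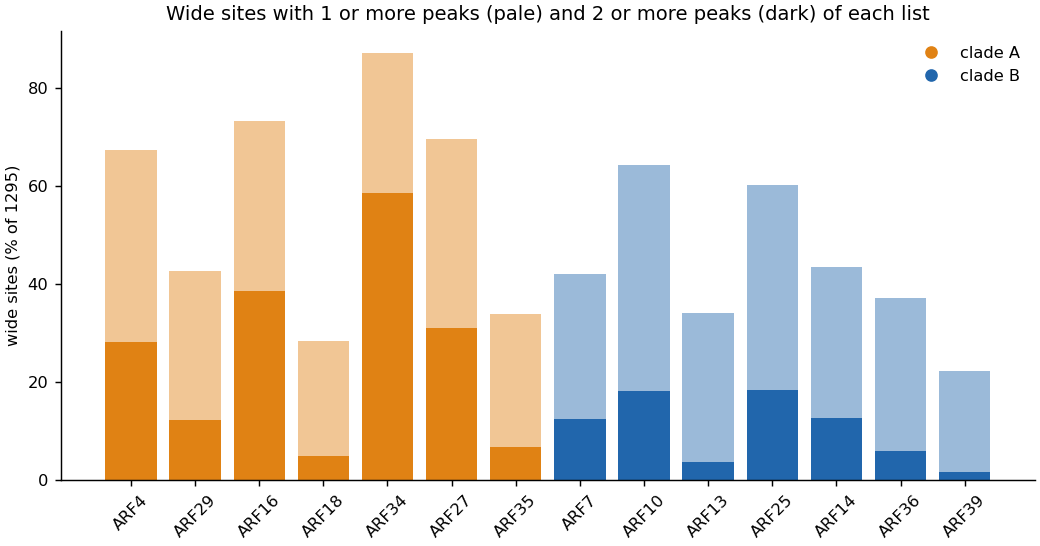
Share of the 1295 wide sites (y axis, percent) with at least 1 peak (full bar) and with 2 or more peaks (dark part) of each of the 14 lists (x axis), clade A in orange and clade B in blue. ARF34 had a peak at 87.3% of wide sites and ARF39 at 22.2%, and the dark part is largest for ARF34 and ARF16.

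To see how many separate places were bound, summits of any list at most 20 bp from the next were chained into a position. The wide sites contained 4800 positions, with a median of 4 per site (quartiles 3 and 4, maximum 11). There were 119 sites with 2 positions, 523 with 3, 394 with 4, 177 with 5 and 82 with 6 or more, so 1176 (90.8%) had at least 3. Neighbouring positions were a median of 75 bp apart (quartiles 44.3 and 142). The rule itself requires at least 3 peaks. The number of positions depends on the chaining distance, and with 50 bp in place of 20 bp 57.3% of wide sites had at least 3.

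Positions differed widely in how many ARFs shared them. A position was held by 1 ARF in 46.9% of cases and by 4 or more ARFs in 22.8%. Clade A lists alone held 53.3% of positions, clade B lists alone held 29.9% and both clades held 16.8%. Positions shared by more ARFs also had stronger peaks. With signal expressed as a rank within its own list, from 0 for the weakest to 100 for the strongest, the median of the mean rank was 35 at positions of 1 ARF, 45.9 at 2 to 3, 57.2 at 4 to 6, 67.4 at 7 to 9 and 71.5 at 10 to 14 ARFs. In sites with 3 or more positions, the outermost positions had a median rank of 42.3 and the inner ones 49.5, with overlapping quartile ranges (23.5 to 61.3 and 29.4 to 67.7).

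At 629 of the 881 both-clade wide sites (71.4%, 68.3 to 74.3%) at least 1 position was shared by the clades, and at 153 (17.4%) 2 or more were. At shared positions the mean clade A and mean clade B summits were a median of 7 bp apart (quartiles 3.5 and 13.8), within 10 bp at 62.3% of them. A clade A only and a clade B only position of 3 or more lists each were present at 45 of the 881 sites (5.11%). With 4 or more lists each there were 21 such sites (2.38%). Only sites with at least 3 lists of each clade could meet the first condition, and 442 wide sites had them. A single list of the other clade was enough to make a position shared. Written as a row of A, B or mixed (M) positions and read in either direction, the both-clade sites formed 186 different patterns. The most frequent were A-A-M with 60 sites (6.81%), and A-A-B and A-M with 44 each.

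The distance between neighbouring summits of the same list had a median of 175 bp in wide sites (3729 distances, quartiles 118 and 216, maximum 575) and 66 bp in narrower sites (16109 distances, quartiles 45 and 97). The longest distance a narrower site can hold is 201 bp, so the shift is partly set by the rule. In wide sites 35.2% of these distances exceeded 200 bp, so both peaks were joined only through peaks of other lists between them. Distances of at most 50 bp made up 4.21% in wide sites and 31.6% in narrower sites.

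Median spacing in wide sites was 170 bp for ARF4, 160 for ARF29, 151 for ARF16, 134 for ARF18, 179 for ARF34, 183 for ARF27 and 175 for ARF35. For clade B it was 179 bp for ARF7, 191.5 for ARF10, 196 for ARF13, 191 for ARF25, 177 for ARF14, 185 for ARF36 and 178 for ARF39. Pooled over lists the medians were 170 bp for clade A and 185 bp for clade B, and the quartile ranges overlapped (112 to 214 and 137 to 220). Pooled over all lists, the most frequent distance, 162 bp, accounted for 39 of the 3729 distances (1.05%). Pooling can hide a distance preferred by 1 list, and the most frequent distance of each list is not given here. The short distances that recurred in narrower sites were rare here. So were all distances of at most 50 bp (4.21% against 31.6% in narrower sites). The width limit favours longer distances, so the following drops are partly set by the rule. ARF7 summits 47 or 48 bp apart made up 232 of 1155 distances (20.1%) in narrower sites and 4 of 178 (2.25%, 0.877 to 5.63%) in wide sites. ARF25 summits 28 or 29 bp apart made up 129 of 1077 (12.0%) and 1 of 263 (0.380%, 0.0672 to 2.12%).

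**Figure D2:**
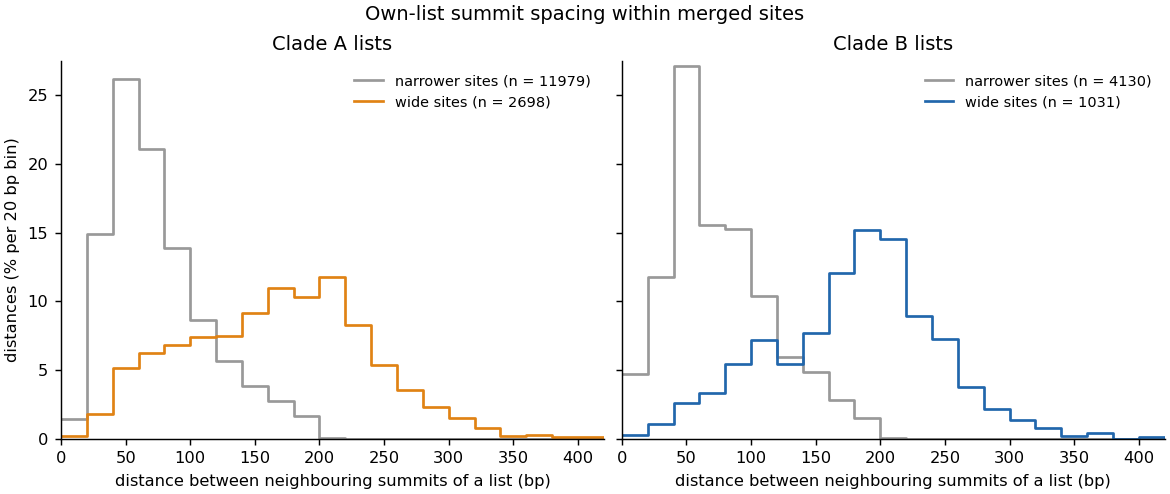
Distance between neighbouring summits of the same list (x axis, bp) as a share of distances per 20 bp bin (y axis, percent), for clade A lists (left) and clade B lists (right), with narrower sites in grey. Distances in wide sites centre on 170 bp for clade A and 185 bp for clade B, and those in narrower sites end at 201 bp. A few wide-site distances beyond the axis are not drawn.

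Peaks of the same list within a site differed in strength. Over 3282 cases of a list with 2 or more peaks in a wide site, the second strongest signal was a median of 60.0% of the strongest (quartiles 40.3 and 78.7%). For pairs of lists, the strongest position of each was compared among the positions where both had a peak. A stronger peak of either list at a position that the other lacked was not considered. With 2 positions to choose from, an even choice would agree in 50% of cases, and all lists share the same GST-HALO background. Among pairs of clade A lists with at least 2 positions in common at a site, the strongest shared position was the same in 1065 of 1502 cases (70.9%, 68.6 to 73.1%). For clade B pairs it was 312 of 469 (66.5%, 62.1 to 70.6%), and for pairs of different clades 291 of 468 (62.2%, 57.7 to 66.5%). Nearly all cases had exactly 2 shared positions, 95.6% for clade A, 97.2% for clade B and 98.9% between clades, and cases of the same site are not independent. Among pairs of lists with at least 20 such sites, agreement was highest for ARF16 and ARF34, 206 of 254 (81.1%), and lowest for ARF16 and ARF25, 8 of 20 (40%). Only 7 pairs of different clades had that many sites, and the 40% rests on the smallest number admitted.

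For the order of the clades along the reference strand, the range from the lowest to the highest clade A summit was compared with that of clade B. Wholly separate ranges were found at 214 of the 881 both-clade wide sites (24.3%, 21.6 to 27.2%), with clade A at the lower coordinate in 100 and clade B in 114. When only the strongest summit of each clade was compared, the summits were over 20 bp apart at 72.4% of the sites. The ranges of all summits were over 20 bp apart at 19.1%. A single summit per clade has no range that could overlap, so these shares measure different things. Among the 214 sites with wholly separate ranges, clade A was lower in 46.7% (40.2 to 53.4%), an interval that includes equal numbers of both orders. In narrower sites with separate ranges, clade A was lower in 49.5%. The clade B range lay inside the clade A range at 316 sites (35.9%, 32.8 to 39.1%), clade A lay inside clade B at 109 (12.4%, 10.4 to 14.7%) and the ranges were staggered at 242 (27.5%).

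Narrower both-clade sites were divided differently, with 43.5% separate, 17.7% with B inside A, 20.8% with A inside B and 17.96% staggered. Separate ranges depend on the number of summits, and separate wide sites had a median of 6 ARFs, against 9 at the other both-clade wide sites. With at least 3 lists of each clade, separate ranges made up 11.5% of 442 wide and 13.02% of 5946 narrower sites, with overlapping intervals (8.89 to 14.9% and 12.2 to 13.9%). B inside A was still more frequent in wide sites (34.6% against 22.3%), and A inside B less so (13.3% against 23.8%).

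**Figure D3:**
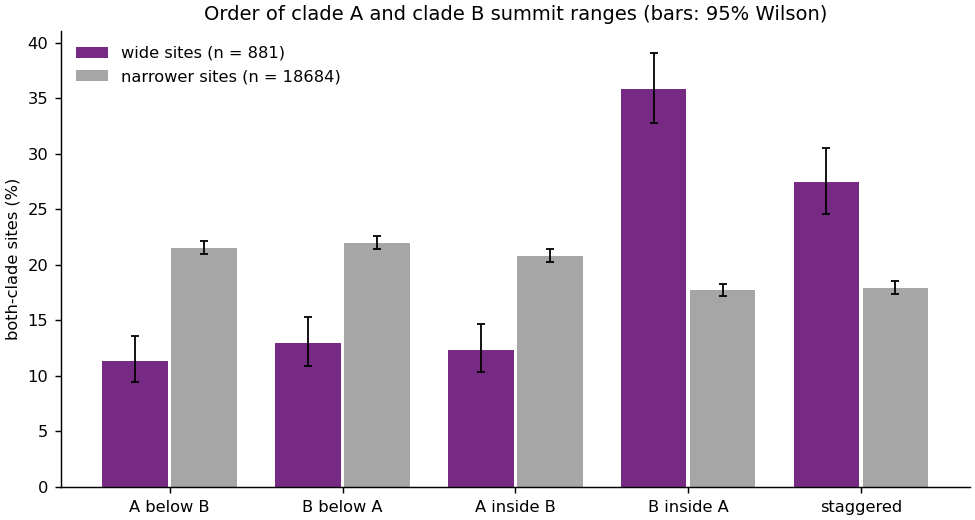
Order of the clade A and clade B summit ranges in sites bound by both clades, as a share of sites (y axis, percent) for wide sites (purple, n = 881) and narrower sites (grey, n = 18684). Below means at the lower coordinate, and error bars are 95% Wilson intervals. In wide sites B inside A is the largest class (35.9%), and A below B and B below A are close (11.4% and 12.9%).

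Clade A summits spanned a median of 210 bp in both-clade wide sites and clade B summits 70 bp. The outermost summits were both clade A at 308 sites (34.96%), both clade B at 107 (12.1%) and of different clades at 456 (51.8%), with ties at the other 10. Clade A also had more peaks at most of these sites, and the part of peak number in the order was not tested. Mean clade A and mean clade B summits were a median of 78.5 bp apart, against 14.1 bp in narrower sites. Where the ranges were separate, 98.5 bp lay between them (quartiles 29.3 and 165), compared with 14 bp in narrower sites. The width limit acts on the distance between outermost summits, so both contrasts with narrower sites are partly set by the rule.

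Individual sites show these arrangements, with coordinates of B73 RefGen v3 and summit places counted in bases from the start of the site. No gene features or sequence of that build were used here. The site at chr5:202476012-202476427 (416 bp, 16 peaks) had the most ARFs among sites with clade A below clade B. The 7 clade A lists had summits at bases 101 to 195 and the 7 clade B lists at bases 299 to 316, leaving 104 bp between the clades. The strongest peak ranked from 48.7 for ARF18 (signal 53.1) to 97.9 for ARF16 (signal 418.7) in clade A, and from 56.8 for ARF13 (signal 58.0) to 96.8 for ARF7 (signal 134.0) in clade B. All 14 proteins were present here in 2 clade-specific groups.

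The counterpart in the reverse order, at chr10:56163659-56164098 (440 bp, 13 ARFs), was less clear cut. Its clade A summits fell at bases 335 to 340 and the last clade B summit at base 333, so 2 bp separated the ranges. Only ARF25 (base 101, signal 41.5, rank 41.9) and ARF14 (base 118, signal 49.5, rank 48.4) had a summit at the far end. Both also had their strongest peak, with signals of 184.5 and 57.5, near the clade A summits.

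The clade A only site with most ARFs, chr2:194483170-194483741 (572 bp), carried all 7 clade A lists and 16 peaks at 5 positions. The strongest peaks ranked between 90.2 (ARF4) and 97.8 (ARF35). All 7 lists had a summit at bases 101 to 116, and 6 of them were strongest there, whereas ARF34 was strongest at base 334 (signal 268.6, against 147.4 at base 101). ARF4 had 4 peaks, at bases 112, 252, 330 and 472, with signals of 91.6, 54.8, 60.5 and 35.1.

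The clade B only site with most ARFs, chr8:147135454-147135877 (424 bp), was built differently. All 7 clade B summits lay within bases 101 to 110, with ranks from 87.4 (ARF39) to 98.4 (ARF25). The site passed the width limit through only 2 further peaks, ARF7 at base 149 (signal 32.2, rank 26.8) and ARF14 at base 324 (signal 24.6, rank 3.5). A shared strong position with a weak distant peak thus counted as wide in the same way as a row of strong ones.

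The widest site, chr8:98757147-98758035, measured 889 bp and held 28 peaks of 11 ARFs at 11 positions. Its mean strongest-peak rank was 57.8, and 6 of the positions were held by 1 list each. The site with most peaks, chr10:9538557-9539374 (818 bp), held 37 peaks of all 14 ARFs at 9 positions, with a mean strongest-peak rank of 88.9. A position at base 104 had all 7 clade A lists and no clade B list, a position at base 285 had 12 lists, and ARF4 and ARF29 had 4 peaks each, at bases 105, 298, 441 and 687 and at bases 101, 263, 437 and 683. The ARF4 signals were 137.5, 148.8, 95.5 and 128.2. ARF16 had 5 peaks, with signals of 63.1, 144.8, 87.1, 40.3 and 27.9.

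Of the other widest sites, chr3:178459179-178459983 (805 bp) had 25 peaks of all 14 ARFs. The site at chr3:221774742-221775540 (799 bp) had 13 peaks of 5 clade A lists, including 4 of ARF34 with signals of 46.9, 109.7, 69.6 and 37.8. The site at chr5:57151833-57152617 (785 bp) had 11 peaks of 4 clade B lists. ARF25 had 4 of them, at bases 101, 350, 594 and 685, ARF14 had 3, at bases 134, 394 and 646, ARF7 had 3, at bases 178, 416 and 665, and ARF39 had 1, at base 608. The strongest peaks ranked only 4.0 (ARF39) to 65.3 (ARF14). Its peaks thus ranked low to moderate in their lists although it was among the 5 widest sites.

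Among the sites with most peaks, chr7:4806600-4807182 (583 bp) and chr9:147922860-147923489 (630 bp) had 32 each, chr10:75679778-75680305 (528 bp) had 30 and chr6:109466592-109467108 (517 bp) had 29. They were bound by 13 or 14 ARFs with mean strongest-peak ranks of 84.4 to 94.9. Of the wide sites with all 14 ARFs, chr1:203882736-203883141 had the highest mean rank, 99.7, although it was only 406 bp wide. All 14 lists had a summit at bases 284 to 306, with signals up to 1345.6 (ARF14) and 1007.1 (ARF16). Next in rank came chr10:1717937-1718712 (776 bp, mean rank 97.7), where the 14 lists met at bases 101 to 137 and only ARF34, ARF27 and ARF10 had further peaks, 4 in all. The chromosome 7 site followed with 94.9. The study left regions with peaks in every sample and in the control out of some of its comparisons. A mark in the names of the deposited lists could mean that these regions were taken out, which no label states, and whether sites with all 14 ARFs include such regions is not known here.

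A further 2 sites were singled out after their values were seen. The only wide site with 1 ARF was chr3:50312156-50312682 (527 bp), with ARF34 signals of 24.5, 27.4 and 47.1. The other site with 5 peaks of 1 list was chr3:222706300-222707076 (777 bp), where the ARF16 signals were 47.6, 102.2, 188.1, 102.8 and 113.9.

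**Figure D4:**
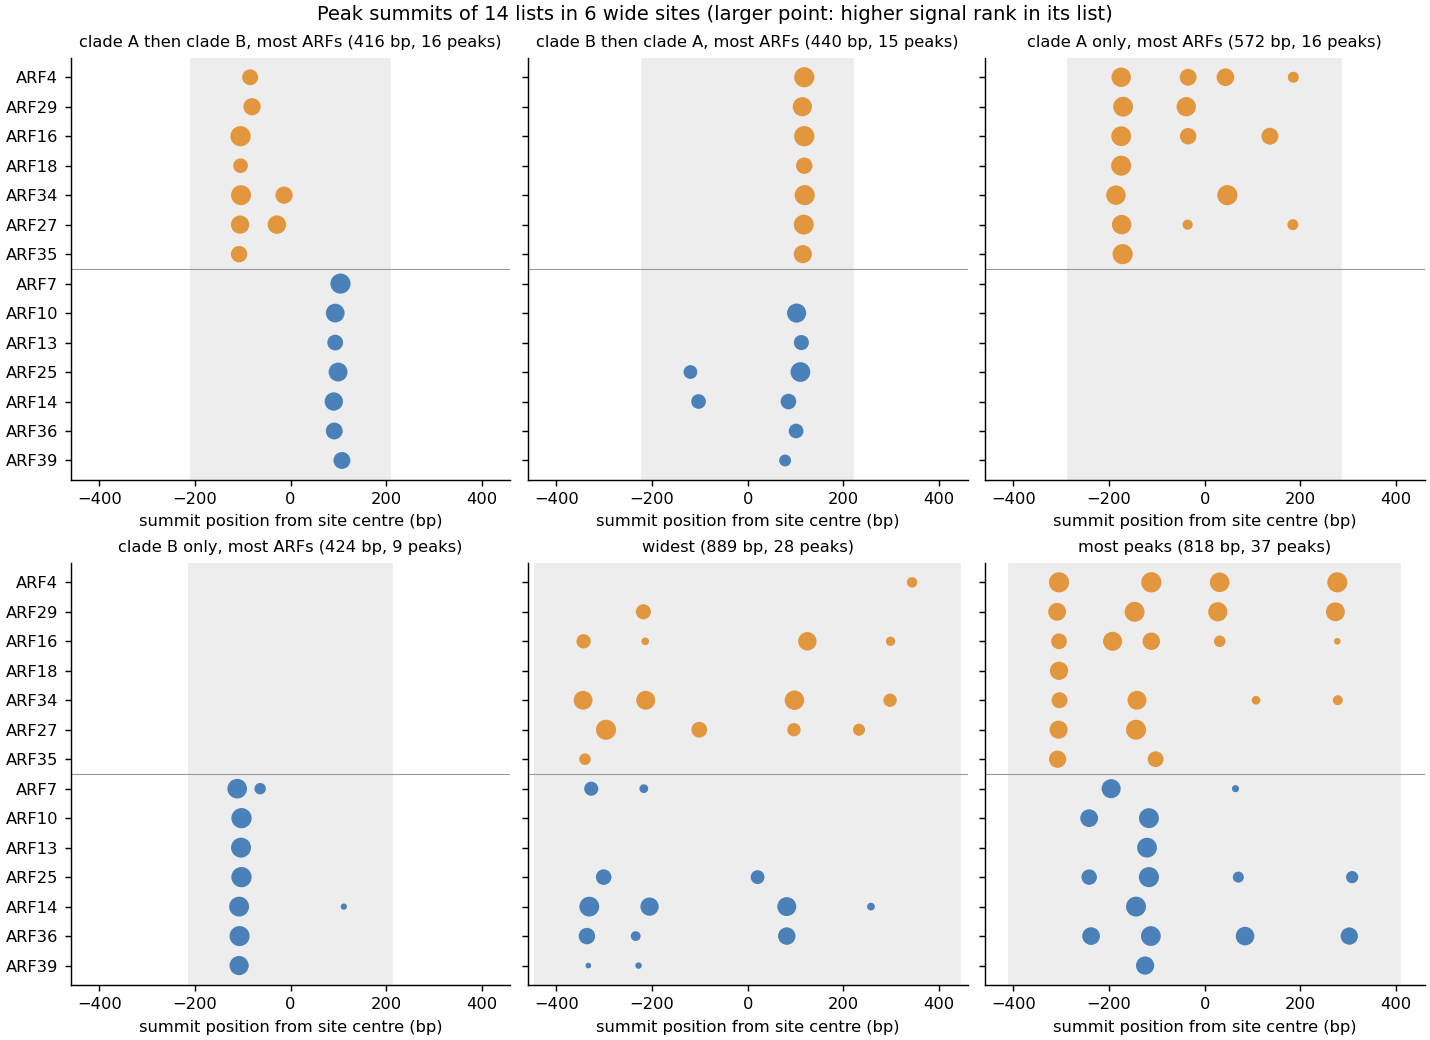
Summits of the 14 lists (rows, clade A in orange above, clade B in blue below) in 6 wide sites, by distance from the centre of the site (x axis, bp). The grey band is the merged site, and a larger point is a higher signal rank within its list. The clades occupy separate places in the upper left panel, whereas the widest and most densely bound sites carry rows of summits of both clades.

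Signal in wide sites was compared by rank, because the deposited signals were not scaled between libraries. Taking the strongest peak of each list at each site, the median rank in wide sites was 69.5 for ARF4, 61.4 for ARF29, 70.0 for ARF16, 58.0 for ARF18, 78.2 for ARF34, 69.9 for ARF27 and 58.4 for ARF35. For clade B it was 60.9 for ARF7, 59.6 for ARF10, 51.6 for ARF13, 59.8 for ARF25, 54.5 for ARF14, 54.3 for ARF36 and 46.3 for ARF39. Medians at narrower sites were 49.7 to 51.1 in every list. Narrower sites hold most peaks of every list, which places these medians near the middle of the scale. The value was higher in wide sites for 13 of 14 lists, by 1.24 (ARF13) to 28.02 (ARF34), and the difference was -4.28 for ARF39. The quartile ranges were broad, for example 53.2 to 91.9 for ARF34 and 26.3 to 69.9 for ARF39.

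Taking the strongest of several peaks raises the rank of lists that repeat. With all peaks of a list counted, the wide-site medians ran from 46.3 (ARF39) to 63.7 (ARF34), against 49.2 to 50.6 at narrower sites, and 11 of 14 lists were higher in wide sites. ARF14 was then lower (49.5 against 50.02), ARF39 was lower as before and ARF13 was at 50.4 in both. Clade A was also compared with clade B within sites, again by the strongest peak of each list, a measure that favours the clade A lists with repeated peaks to an extent that was not tested. At both-clade wide sites the mean clade A rank exceeded the mean clade B rank at 614 of 881 sites (69.7%, 66.6 to 72.6%), with a median difference of 13.5. In narrower both-clade sites it did so at 55.8%, with a median difference of 4.57.

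**Figure D5:**
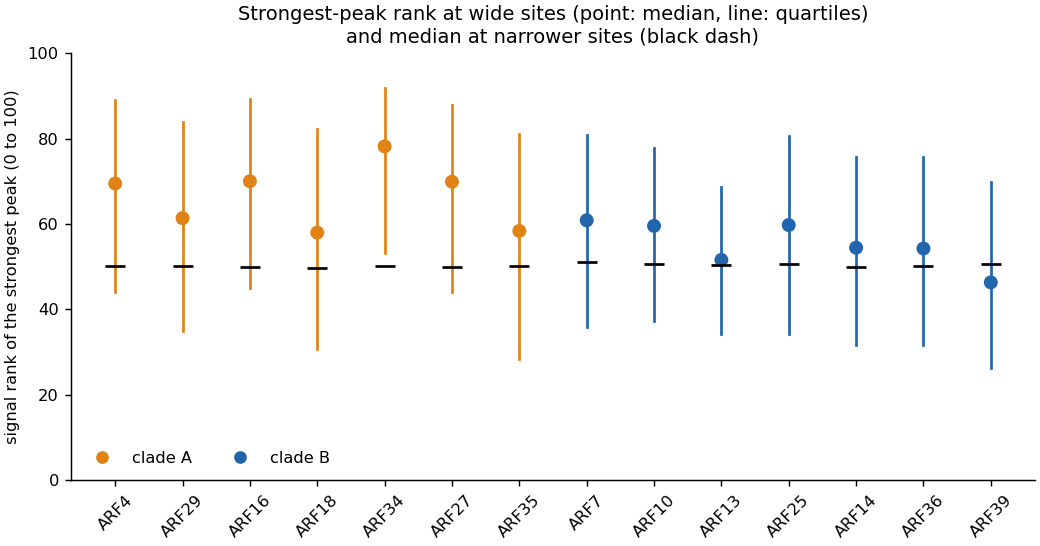
Signal rank of the strongest peak per site (y axis, 0 to 100 within each list) for each of the 14 lists (x axis). Points are medians and lines are quartiles over wide sites, and black dashes are medians over narrower sites. Wide-site medians run from 46.3 (ARF39) to 78.2 (ARF34) and lie above the narrower-site value in 13 of 14 lists.

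Because sites with many ARFs tended to rank higher, ranks were also compared at equal ARF number. The median of the mean strongest-peak rank in wide and narrower sites was 41.7 and 36.1 with 2 ARFs, 45.4 and 50.2 with 5, 57.1 and 69.2 with 7, 62.9 and 72.4 with 10, and 82.4 and 81.0 with 14. It was lower in wide sites for 10 of the 13 ARF numbers and higher with 2, 3 and 14 ARFs. The weighted difference, wide minus narrower, was -3.82, and it was -8.45 with all peaks of a list counted. Per list, with the strongest peak, it was -3.64 to 2.87 for clade A, above 0 for ARF4, ARF27 and ARF34, and -15.4 to -9.06 for clade B.

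Clade composition entered that comparison. Narrower sites with 7 ARFs were less often of both clades (33.6% against 66.2%), and 2281 narrower sites were bound by the full clade B set alone. Matched instead on the number of ARFs of each clade, the weighted difference was -1.30, and the per-list values ran from -8.76 (ARF39) to 1.04 (ARF4).

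Wide sites lay more often near chromosome ends. Of 1295 wide sites, 31.4% (28.9 to 33.9%) fell in the outer 20% of their chromosome, 10% at each end, against 23.8% of narrower sites and 25.6% of narrower sites weighted to the same ARF numbers. The share of merged sites that were wide ran from 0.874% (0.712 to 1.07%) on chromosome 7 to 1.16% (1.02 to 1.33%) on chromosome 1, with overlapping intervals over the 10 chromosomes. Another merged site lay within 1000 bp of 33.1% (30.5 to 35.7%) of wide sites, compared with 21.4% of narrower sites and 23.8% after the same weighting. The median distance to the nearest other site was 2285 bp and 4025 bp. Another wide site was found within 10000 bp of 48 (3.71%) of the wide sites, and wide sites were 1.04% of all merged sites. The share of narrower sites with a wide site that near was not computed.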

How the data were processed

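DAP-seq libraries of 14 GST-ARF proteins and a GST-HALO control, 15 samples in all, were made from B73 ear DNA. The authors trimmed reads, mapped them with bowtie2 2.2.8 to the nuclear chromosomes of B73 RefGen v3, filtered on mapping quality, which lowers coverage of near-identical repeats, and called peaks per library with GEM against GST-HALO. Only the 14 ARF lists were analysed here. The deposited signal is the read depth GEM gave each peak, not scaled between libraries, so it was used as a rank within its list. The authors' p-values and q-values are deposited as −log10 values, with a limit of 5 and a ceiling of 999 for q. The deposited display score was not used. The study's methods give only a range of reads over all samples, and the labels give a read number for ARF34 and ARF27 alone, so the precision that depth gives each list could not be stated.

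Peaks overlapping by at least 1 bp were merged with pandas 2.3.3 and numpy 2.4.6 in Python 3.11.15. The result differed from bedtools 2.31.1 by 0 sites, and 200 of 200 planted wide sites and their orders were recovered in simulated lists. Coordinates are 1-based. Chromosome length was taken as the largest peak end. Clade sets follow the study, since the labels give none. Values weighted to the ARF numbers of wide sites average the narrower sites of each ARF number by the number of wide sites with that number. For the clade-matched rank comparison, 62 classes with at least 5 narrower sites were used. Shares have Wilson intervals (scipy 1.17.1), and no test was made.

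Sites named were the 5 widest, the 5 with most peaks, the 3 bound by all 14 ARFs with the highest mean strongest-peak rank, and, for clade A below clade B, the reverse, clade A only and clade B only, the site with most ARFs. The wide sites, the clade sets and these rules were chosen with earlier results of these data known. Motif counts were planned but not run, because no genome of this build was used here. Alternatives were joining by 100 bp, a −log10 q of at least 10, equal lists of the 7520 strongest peaks, a limit of 3 peak widths, leaving out each list, and other definitions of order, gap, rank and position.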

Additional observations from a re-analysis of the deposited data

How the results depend on the processing

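The following values depend on the processing, with the value of the report before each change. The 1295 wide sites became 194 when joining required 100 bp of overlap, 335 with a −log10 q of at least 10, 141 with equal list sizes and 47 above 3 peak widths. Their share of all peaks went from 3.33% to 0.654%, 1.77%, 1.33% and 0.182% in the same order. With 100 bp joining, median peaks and ARFs were 12 and 8, both clades were present at 83.5%, own-list spacing was 134 bp, separate ranges made up 12.3% with clade A lower in 60.0% of them (38.7 to 78.1%), and the gap of clade means was 53.6 bp. There 34.02% of wide sites lay in the outer 20%, 100% had 3 or more positions and 19.7% of positions had both clades. With the stricter q limit, 37.0% lay in the outer 20% and 86.6% had 3 or more positions. With equal list sizes, 58.9% held both clades, spacing was 179 bp, 31.3% were separate, the gap was 91.0 bp, 41.1% lay in the outer 20% and 12.8% of positions had both clades. Narrower sites in the outer 20% made up 24.0%, 24.3% and 25.2% in these settings. Above 3 peak widths, peaks and ARFs were 13 and 8, spacing 200 bp, separate ranges 9.09% with clade A lower in 66.7% (20.8 to 93.9%, few sites), the gap 99.7 bp, the outer 20% held 34.04%, 100% had 3 or more positions, and the rank difference at equal ARF number was -2.46. For the order of the clades, separate ranges changed from 24.3% to 72.4% when only the strongest summit of each clade was compared, apart meaning over 20 bp, and to 19.1% when ranges had to be over 20 bp apart. Using the strongest summit of each list moved the gap to 71.5 bp, and the outer 40% held 53.3% of wide and 44.99% of narrower sites. The next changes, to the chaining distance and the rank difference, were chosen after seeing the data, as were all results on positions and the rank difference themselves. Chaining summits by 10 or 50 bp in place of 20 gave 3 or more positions at 97.6% and 57.3% of sites. Both clades then held 12.5% and 24.7% of positions. With 50 bp, the strongest shared position was the same between clades in 67.3% of cases. The rank difference of -3.82 became -8.45 with all peaks counted and -1.30 at equal ARFs of each clade. Leaving out each list in turn gave 938 (without ARF34) to 1289 wide sites, 2.85 to 3.33% of peaks, 8 to 9 peaks and 6 ARFs per site, both clades at 62.5 to 69.8%, spacing of 173 to 179 bp, separate ranges at 23.9 to 26.2% with clade A lower in 44.6 to 49.2%, and a gap of 76.6 to 82.8 bp. It gave a strongest-peak rank of 59.1 to 60.7, 31.0 to 31.9% in the outer 20%, 3 or more positions at 89.6 to 91.7%, both clades at 14.8 to 17.3% of positions and a rank difference of -4.55 to -2.92. No setting changed the sign of the rank difference, and the share in the outer 20% was above that of narrower sites wherever both were computed. The cause of these changes was not tested. No paired analysis was possible because each ARF had 1 library. The depth of most single libraries is not known here, which limits every comparison between lists. The study describes its ARF data as highly reproducible, with little difference between DNA libraries of different tissues. With 1 library per ARF used here, these lists alone cannot tell which peaks would recur.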
